A study of Mus musculus with 24 samples.

Results

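The 6 genes described here, Lipf, Grid1, Tph2, Slc5a7, Ncan and Pla2g2e, were picked from 41388 counted genes because their transcripts were low in inguinal white fat of mice on chow and far higher in mice on a high-fat diet. Inguinal white fat is the subcutaneous fat pad of the groin. The open question was whether corticosterone, the main glucocorticoid of the mouse, raised them as well. The high-fat and chow values chose the genes, so the high-fat rise is given as a description with no test, and the tests concern corticosterone and genotype. Corticosterone was set against the same chow libraries, and picking genes for low chow values favours a rise over them, so the corticosterone counts of the 6 genes are not independent of the choice. Genotype comparisons on the high-fat diet and on chow also use values that chose the genes. Which genotype served for the choice is not known, so those counts are not independent of it either.

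The series holds 24 total RNA libraries of this fat pad from male mice, in 6 groups of 4. FMRKO mice (AdipoqCre+, MRflox/flox) lack the mineralocorticoid receptor gene Nr3c2 where Cre is expressed from the adiponectin promoter, that is in fat cells, and control mice carry the same floxed alleles (MRflox/flox), so no group has unmodified Nr3c2. Mice of each genotype were on a high-fat diet, were given corticosterone, or were on chow. The sources used here do not give dose, duration, age or a vehicle group, so corticosterone was set against chow.

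Most of these genes are known from other organs. Lipf encodes gastric lipase, a fat-digesting enzyme secreted by the stomach. Tph2 encodes the tryptophan hydroxylase of serotonin neurons, the enzyme that limits serotonin synthesis there, and Slc5a7 encodes the high-affinity choline transporter that supplies cholinergic nerve endings. Grid1 encodes the glutamate receptor delta-1 subunit, which takes part in synapse formation, and Ncan encodes neurocan, a chondroitin sulfate proteoglycan of brain matrix. Pla2g2e encodes a secreted phospholipase A2, an enzyme that frees fatty acids from phospholipids outside the cell. White fat cells enlarge on a high-fat diet, and glucocorticoids act on the same cells through the glucocorticoid receptor and can also bind the mineralocorticoid receptor.

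Levels are given as CPM, counts scaled to library size after TMM normalisation. Library totals ran from 17925109 to 40427675 counts, and 19717 genes passed a filter on low counts, all 6 genes among them. The labels do not say that libraries of a group are separate animals, and the p-values then rest on library-to-library spread, which may be technical. All 12 adipocyte markers listed, such as Adipoq and Plin1, were detected in every library. Nr3c2 averaged 14.5 ± 1.35 CPM in FMRKO mice on the high-fat diet and 20.8 ± 2.95 CPM in control mice on it, 10.6 ± 2.01 CPM in FMRKO mice given corticosterone and 16.7 ± 2.02 CPM in control mice given it, and 19.2 ± 6.23 CPM in FMRKO mice on chow and 23.5 ± 4.56 CPM in control mice on chow (SD, n = 4 each). Its log2 difference was -0.52, -0.66 and -0.29 in these 3 conditions, which edgeR's quasi-likelihood test did not call, and the whole-gene count includes exons outside the floxed part and cells without Cre. Titles of 8 of 8 chow libraries and 0 of 16 others carry a leading number. If that marks a batch, it cannot be told apart from chow. Lymph node lymphocyte transcripts were high in 4 high-fat and 2 chow libraries, and skeletal muscle transcripts in 1 high-fat, 1 corticosterone and 1 chow library.

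**Figure D1:**
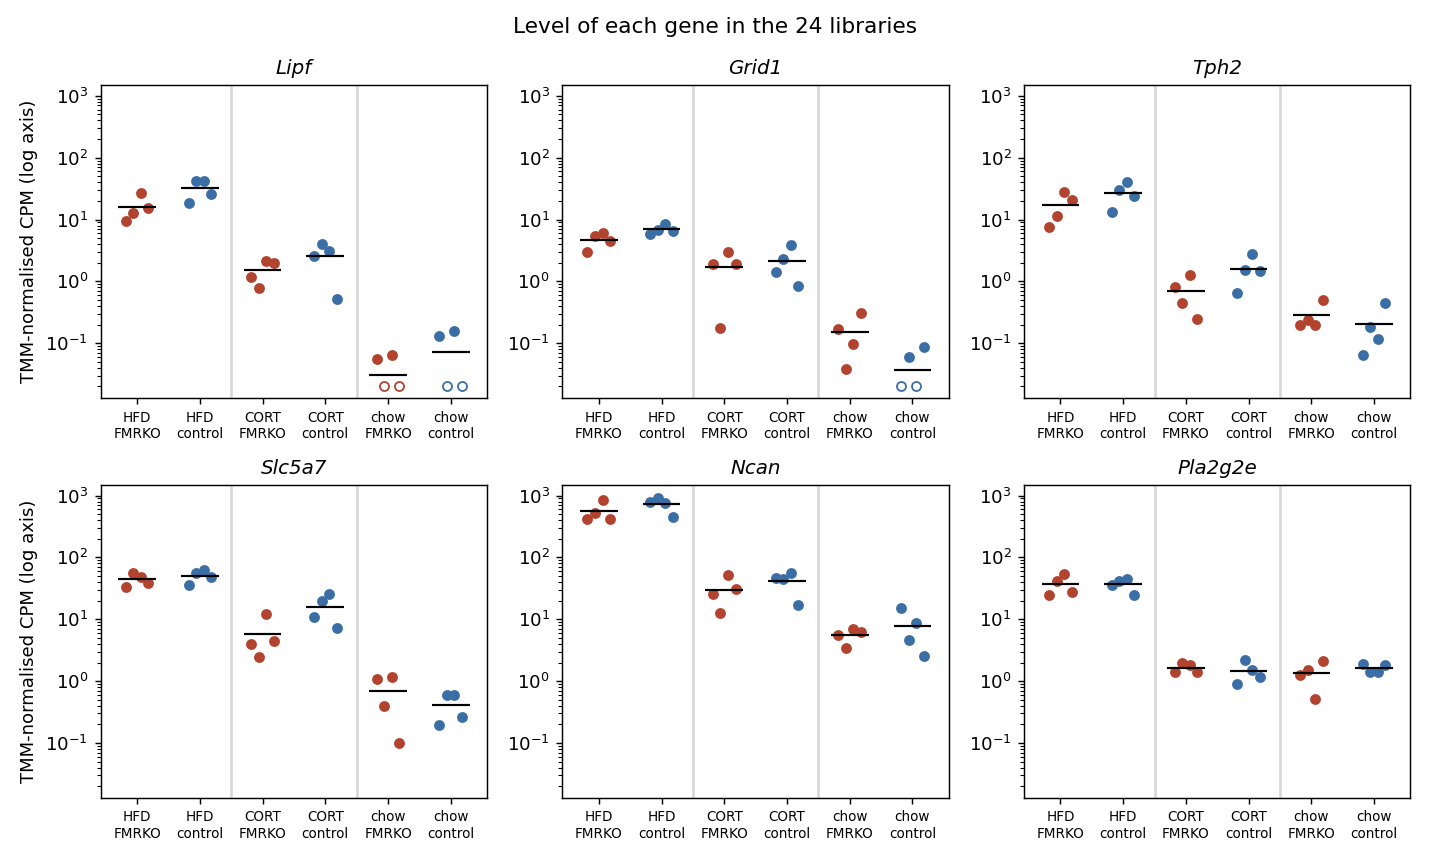
Each panel plots one gene, with TMM-normalised CPM (log axis) by group; points are libraries, the bar is the mean of 4, and open points at the foot mark libraries with 0 counts. All high-fat libraries lie above all chow libraries in every panel, and the corticosterone means lie between them except for Pla2g2e, where corticosterone and chow libraries overlap.

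The answer differed among the 6. Corticosterone raised Lipf, Grid1, Slc5a7 and Ncan in both genotypes and Tph2 in control mice, and Pla2g2e was not called higher in either genotype. In control mice 5 of the 6 genes rose, where 20.2% of all genes tested, not picked for low chow values, rose, and in FMRKO mice 4 of 6 rose, where 20.2% of all genes did. Averaged over genotypes 5 of 6 rose, against 25.6% of all genes. The median log2 fold change of the 6 was 2.71 in FMRKO mice and 4.05 in control mice, beside -0.11 and -0.12 over all genes. For all 6, the mean corticosterone level stayed at or under 36.6% of the high-fat mean of the same genotype. High-fat values chose the genes, which favours a high-fat mean above the corticosterone mean. How often other genes stay under that share was not counted. Without overlap between libraries, corticosterone lay above chow for 3 of 6 genes in FMRKO mice (20.2% of all genes), for 5 of 6 in control mice (19.7%), and for 2 of 6, Lipf and Slc5a7, over both genotypes pooled (13.6%). The calls are from edgeR's quasi-likelihood test with Benjamini-Hochberg adjustment over 19717 genes at a threshold of 0.05.

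Lipf (ENSMUSG00000024768, chr19:33961187-33976810, plus strand, GRCm38) had the fewest reads on chow. Its level was 9.50, 12.6, 27.2 and 15.3 CPM in the FMRKO high-fat libraries and 18.5, 42.6, 41.3 and 25.9 CPM in the control high-fat libraries. It was 1.18, 0.795, 2.12 and 1.96 CPM in FMRKO mice given corticosterone and 2.55, 4.02, 3.14 and 0.513 CPM in control mice given it, against 0.0558, 0, 0.0647 and 0 CPM in FMRKO mice on chow and 0.129, 0, 0.158 and 0 CPM in control mice on chow. Every corticosterone library, the lowest being control library 4, was above every chow library, and no chow library had more than 4 reads of the gene. With 4 reads over the FMRKO chow group and 8 over the control chow group, the size of any fold against chow is loosely set. The rise with corticosterone was 5.27 ± 0.83 (log2, SE) in FMRKO mice and 5.08 ± 0.74 in control mice, with edgeR adjusted p = 5.53e-05 and 1.84e-05. On the high-fat diet the difference was 8.67 and 8.72 log2 units in FMRKO and control mice, the second highest and the highest of all genes tested (15.2% and 15.3% of all genes rose). Without the 2 chow FMRKO libraries rich in lymph node transcripts, both remaining chow FMRKO libraries were at 0 reads and the fitted change was 8.38, a value set largely by the prior count. The 300 bases around the gene's RefSeq start, chr19:33960998-33961297 on the plus strand of GRCm38.p6, are shown because this gene had the largest high-fat difference in control mice. They run from 250 bases before the RefSeq start to 50 after it and held none of the 4 motifs searched. That start lies inside the counted gene and differs from the gene start given above. Only exact TATAAA was searched as a TATA-box sequence, so the similar run tatataag in this window was not counted.
Lipf promoter: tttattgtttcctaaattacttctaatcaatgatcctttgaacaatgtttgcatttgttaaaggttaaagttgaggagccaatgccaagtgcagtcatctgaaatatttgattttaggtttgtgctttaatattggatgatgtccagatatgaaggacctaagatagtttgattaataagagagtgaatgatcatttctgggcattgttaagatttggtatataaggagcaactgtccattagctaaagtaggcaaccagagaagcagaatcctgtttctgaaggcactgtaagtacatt

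Tph2 (ENSMUSG00000006764, chr10:115078641-115185022, minus strand) had the smallest fitted corticosterone change in FMRKO mice of the 5 genes that rose in control mice, whereas among control mice that of Ncan was smaller. It was at 7.67, 11.4, 28.2 and 21.1 CPM in FMRKO and 13, 29.5, 39.7 and 24.2 CPM in control high-fat libraries. With corticosterone it was at 0.81, 0.442, 1.26 and 0.25 CPM in FMRKO libraries and 0.645, 1.52, 2.76 and 1.45 CPM in control libraries, against 0.195, 0.234, 0.194 and 0.507 CPM in FMRKO and 0.0643, 0.181, 0.118 and 0.44 CPM in control libraries on chow. The groups did not overlap in control mice, whereas in FMRKO mice 2 of 4 corticosterone libraries lay inside the chow range. The rise was 3.02 ± 0.62 log2 units in control mice (edgeR adjusted p = 6.33e-04). In FMRKO mice it was 1.37 ± 0.62 (adjusted p = 0.0799), with a 95% interval of 0.086 to 2.65, and was not called. Without corticosterone FMRKO library 4 it was 1.62 and called (adjusted p = 0.0468), and without library 3 it was 0.89 (adjusted p = 0.299), in a range of 0.0068 to 0.334 over all alternatives run. The difference between the genotypes' responses was -1.65 ± 0.89 log2 units (adjusted p = 0.858), so the 2 responses were not shown to differ. On the high-fat diet the difference from chow was 5.96 log2 units in FMRKO and 7.08 in control mice. Its window, chr10:115184973-115185272 on the minus strand, is shown because it alone of the 5 windows had the exact TATA-box sequence TATAAA (capitals) near the usual place, at -30 counted from 0 at the start. Other forms of the TATA box, such as the run tatataag in the Lipf window, were not searched. Of 32544 distinct promoter windows of this length, 13.57% hold TATAAA on either strand.
Tph2 promoter: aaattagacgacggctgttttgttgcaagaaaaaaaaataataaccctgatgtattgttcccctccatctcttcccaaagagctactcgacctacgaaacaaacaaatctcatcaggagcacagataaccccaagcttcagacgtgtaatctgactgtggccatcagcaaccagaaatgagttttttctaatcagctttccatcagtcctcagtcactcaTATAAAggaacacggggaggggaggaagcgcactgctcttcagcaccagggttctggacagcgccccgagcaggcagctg

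Slc5a7 (ENSMUSG00000023945, chr17:54273594-54299034, minus strand) gave the steadiest high-fat level, its highest library being 1.90 times its lowest. The level was 33.5, 55, 48.5 and 39.3 CPM in FMRKO and 36.3, 55.2, 63.6 and 48.7 CPM in control high-fat libraries. Corticosterone libraries held 4.05, 2.43, 12.1 and 4.46 CPM in FMRKO and 11, 19.4, 25.4 and 7.31 CPM in control mice, against 1.09, 0.389, 1.16 and 0.101 CPM in FMRKO and 0.193, 0.603, 0.592 and 0.264 CPM in control mice on chow. All 8 corticosterone libraries were above all 8 chow libraries. The rise was 2.99 ± 0.54 log2 units in FMRKO mice (edgeR adjusted p = 2.30e-04) and 5.23 ± 0.60 in control mice (adjusted p = 1.36e-06). On the high-fat diet the difference was 5.92 and 6.92 log2 units in FMRKO and control mice. Without the lymph node rich libraries the corticosterone rise in FMRKO mice was 4.51. With corticosterone its mean was 13.1% of the high-fat mean in FMRKO mice and 31.0% of it in control mice.

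Grid1 (ENSMUSG00000041078, chr14:34819825-35583379, plus strand) had the lowest level per length of the 6 on the high-fat diet. It stood at 2.95, 5.5, 6.09 and 4.43 CPM in FMRKO and 5.88, 6.85, 8.51 and 6.55 CPM in control high-fat libraries. It stood at 1.88, 0.177, 2.97 and 1.93 CPM in FMRKO and 1.4, 2.28, 3.92 and 0.856 CPM in control libraries with corticosterone, against 0.167, 0.0389, 0.097 and 0.304 CPM in FMRKO and 0, 0.0603, 0 and 0.0881 CPM in control libraries on chow. Corticosterone FMRKO library 2, with 4 reads of the gene, was the exception to separation from chow, and corticosterone FMRKO library 3 and control library 3 reached above the lowest high-fat library. The rise was 3.54 ± 0.69 log2 units in FMRKO mice (edgeR adjusted p = 4.38e-04) and 5.71 ± 0.82 in control mice (adjusted p = 1.76e-05). The high-fat difference was 4.98 and 7.43 log2 units in FMRKO and control mice. Its corticosterone mean was 36.6% of the high-fat mean in FMRKO mice and 30.4% of it in control mice. Between genotypes the response differed by -2.17 ± 1.11 log2 units (adjusted p = 0.857).

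Ncan (ENSMUSG00000002341, chr8:70093085-70120873, minus strand) was not near silence on chow. It was counted 57 to 466 times per chow library, so the wording of a rise from near-silence did not hold for it. It did not hold for Pla2g2e either, which per unit of length was higher on chow, at a mean of 1.64 RPKM beside 0.922 RPKM for Ncan. Its level was 423, 530, 850 and 421 CPM in FMRKO and 778, 915, 771 and 453 CPM in control high-fat libraries. With corticosterone it was 25.2, 12.9, 51.3 and 30.6 CPM in FMRKO and 46.9, 45.4, 55.5 and 17.2 CPM in control mice, against 5.63, 3.47, 6.95 and 6.18 CPM in FMRKO and 15, 4.58, 8.76 and 2.51 CPM in control mice on chow. The lowest corticosterone library of each genotype was above that genotype's highest chow library, although FMRKO corticosterone library 2 lay below control chow library 1. The rise was almost equal in the genotypes, 2.43 ± 0.48 log2 units in FMRKO mice (edgeR adjusted p = 5.11e-04) and 2.41 ± 0.48 in control mice (adjusted p = 4.08e-04). The high-fat difference was 6.64 and 6.56 log2 units in FMRKO and control mice.

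Pla2g2e (ENSMUSG00000028751, chr4:138877942-138882817, plus strand) was higher on the high-fat diet but not with corticosterone. It was at 24.4, 40.9, 54.9 and 27.7 CPM in FMRKO and 36.2, 41.5, 45.4 and 25 CPM in control high-fat libraries. With corticosterone it was at 1.4, 1.94, 1.82 and 1.39 CPM in FMRKO and 0.896, 2.18, 1.53 and 1.15 CPM in control mice, against 1.26, 1.52, 0.517 and 2.13 CPM in FMRKO and 1.9, 1.42, 1.42 and 1.85 CPM in control mice on chow. The corticosterone and chow libraries overlapped, 1 of 8 corticosterone libraries lying above every chow library, and chow libraries held 16 to 59 reads of the gene. The fitted change was 0.30 log2 units in FMRKO mice (95% interval -0.41 to 1.01, edgeR adjusted p = 0.506) and -0.18 in control mice (-0.88 to 0.53, adjusted p = 0.699). The high-fat difference was 4.79 and 4.49 log2 units in FMRKO and control mice. Averaged over genotypes the corticosterone change was 0.061 with an interval of -0.44 to 0.56, which holds none of the rises of the other 5 genes. Its window, chr4:138877692-138877991 on the plus strand, is shown because this was the gene that corticosterone was not called to raise. In capitals are AGGTCA, a nuclear receptor recognition sequence, at -194 and TGANTCA, the AP-1 core, at -87 and 26.
Pla2g2e promoter: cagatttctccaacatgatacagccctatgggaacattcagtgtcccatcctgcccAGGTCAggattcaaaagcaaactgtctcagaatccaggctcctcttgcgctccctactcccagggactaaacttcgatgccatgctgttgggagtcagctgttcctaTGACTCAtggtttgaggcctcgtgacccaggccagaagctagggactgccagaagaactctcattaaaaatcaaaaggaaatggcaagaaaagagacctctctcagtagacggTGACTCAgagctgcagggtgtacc
AGGTCA is in 16.25% of all windows and TGANTCA in 7.79%. The glucocorticoid receptor core AGAACA, held by 18.92% of all windows, was in none of the 5 windows, which says only that these letters are not in those 300 bases. TATAAA was also in the Slc5a7 window at -187 and, on the opposite strand, in the Ncan window at -11. Both strands were searched.

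**Figure D2:**
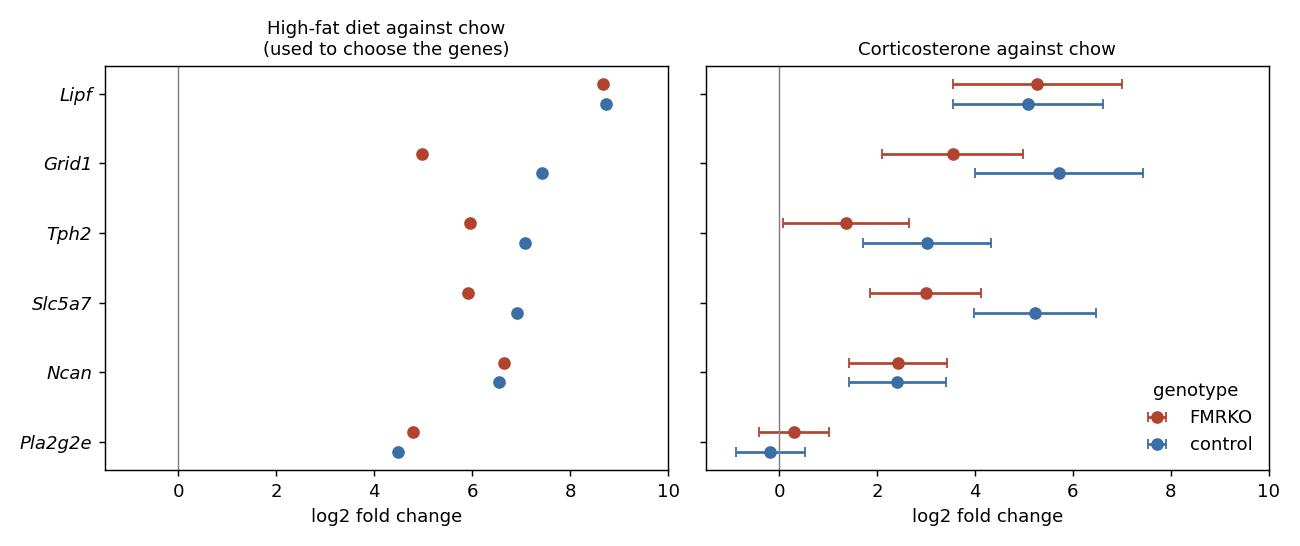
Log2 fold changes of the 6 genes (rows), with the high-fat diet against chow on the left, plotted without error bars or test because it chose the genes, and corticosterone against chow on the right with 95% intervals, for FMRKO and control mice. Of the corticosterone intervals only those of Pla2g2e cross 0.

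**Figure D3:**
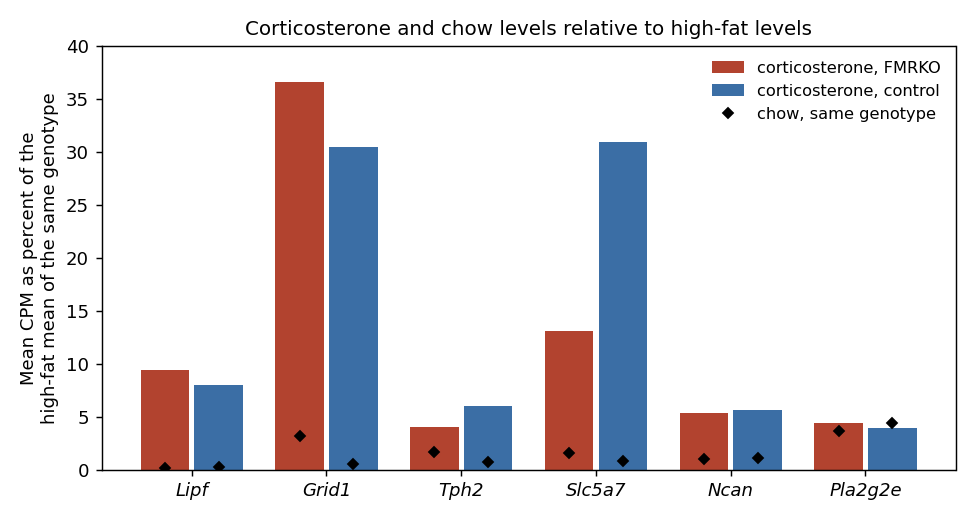
Bars give each gene's mean CPM with corticosterone as a percent of its mean on the high-fat diet in the same genotype (from 0), and diamonds the same for chow. Grid1 reached 36.6% in FMRKO mice and 30.4% in control mice, Slc5a7 13.1% in FMRKO mice and 31.0% in control mice, and the other genes less than 10%. High-fat values chose the genes, which favours low percentages.

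Per unit of length, the high-fat levels ran in the order Ncan, Pla2g2e, Lipf, Slc5a7, Tph2 and Grid1, with means over the 8 libraries of 89.3, 40.3, 17.1, 9.18, 7.59 and 0.959 RPKM. Ranges of neighbouring genes overlapped (6.47 to 12.3 RPKM for Slc5a7 and 2.66 to 13.8 RPKM for Tph2), except that Grid1, at 0.485 to 1.4 RPKM, lay below the others. With corticosterone Ncan was still first at 4.95 RPKM and Slc5a7 second at 2.08 RPKM, while Pla2g2e averaged 1.68 RPKM, beside 1.64 RPKM on chow. High-fat FMRKO library 1, also rich in lymph node transcripts, was lowest among the 8 high-fat libraries for 5 of 6 genes. Corticosterone control library 3 was highest among the 8 corticosterone libraries for 4 of 6. Over the high-fat libraries with genotype means removed, pairs of the 6 correlated from r 0.37 (Slc5a7 and Ncan) to 0.93 (Lipf and Tph2). How often other genes do so was not counted.

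No difference between FMRKO and control mice was called in the 6 genes: 0 of 6 were called in any of the high-fat, corticosterone and chow comparisons, where 0.0101%, 0.00507% and 0.0101% of all genes were. By unadjusted edgeR p, 0, 2 and 0 of the 6 fell under 0.05, beside 3.96%, 4.28% and 11.9% of all genes, and DESeq2 called none of them. Slc5a7 with corticosterone had the lowest p of these, at 4.05, 2.43, 12.1 and 4.46 CPM in FMRKO mice against 11, 19.4, 25.4 and 7.31 CPM in control mice. Its log2 difference was -1.44 ± 0.47 (edgeR adjusted p = 0.951). The other was Tph2 at -1.17 ± 0.54 (edgeR adjusted p = 1). The widest fitted difference was that of Grid1 on chow, 1.90 ± 0.96 (edgeR adjusted p = 0.451), where no library held more than 6 reads of it. On the high-fat diet Lipf differed by -0.99 ± 0.50 (edgeR adjusted p = 1). Same-numbered high-fat libraries of the 2 genotypes deviated together (r 0.20 to 0.72 in 4 of 4 pairs, of which numbers 1 and 4 were rich in lymph node transcripts in both). Different-numbered pairs ran from r -0.59 to 0.24. FMRKO library 1 correlated more with control library 4 (0.24) than with control library 1 (0.20), so pairing by number is not shown for it. Within the same-numbered pairs the FMRKO library was below the control library in 4 of 4 for Lipf, Grid1, Tph2 and Slc5a7, in 3 of 4 for Ncan and in 2 of 4 for Pla2g2e. The share of all genes with 4 of 4 pairs in the same direction was not counted. The 6 genes also correlated with each other in these libraries, so their directions are not separate results. High-fat values chose the 6 genes, so the counts of the following fit are not independent of that choice. With the replicate block in the high-fat libraries alone, an alternative added after seeing the data, 0 of 6 were called. Of the 6, 5 had an unadjusted edgeR p under 0.05, beside 11.2% of the 17484 genes tested there, of which 39 were called. Lipf was then nearest to a call at -1.02 (edgeR adjusted p = 0.0775), beside -0.71 for Tph2 (adjusted p = 0.165) and -0.60 for Grid1 (adjusted p = 0.189). For the difference between the genotypes' responses to corticosterone, 0 of 6 genes were called by edgeR or DESeq2, where 0% of all genes were by edgeR (1171 had an unadjusted p under 0.05, and DESeq2 called 4), and 1 of 6, Slc5a7, had an unadjusted p under 0.05. That difference was -2.24 ± 0.78 (edgeR adjusted p = 0.671), and -0.77 (adjusted p = 0.907) without the libraries rich in lymph node transcripts, 2 of which were chow FMRKO libraries.

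Marker lists of other cell types were measured beside these genes. Of 16 neuron markers, 12 never reached 1 CPM in a library and 6 were at 0 in most of the 24 libraries, Chat and Th among them. The summed level of the list was 36.1 to 59.0 CPM on the high-fat diet, 26.5 to 48.6 CPM with corticosterone and 12.1 to 23.1 CPM on chow. Most of that sum was Syp, which encodes a synaptic vesicle protein. It rose on the high-fat diet by 2.24 log2 units in FMRKO mice and 2.09 in control mice, and by 1.76 with corticosterone averaged over genotypes (edgeR adjusted p = 3.13e-06, 5.36e-06 and 7.73e-08). Of 13 stomach and salivary markers, 10 stayed under 1 CPM, and Gkn2, Tff2 and Bpifa2 were at 0 in all libraries. The amylase gene Amy1 and the gastric mucin gene Muc6 were not low, with medians of 180 and 17.6 CPM on the high-fat diet, 280 and 12.2 CPM with corticosterone and 143 and 28.0 CPM on chow. The summed level of that list was 106 to 231 CPM on the high-fat diet. With corticosterone it was 263 to 345 CPM and on chow 135 to 241 CPM. Most of that sum was Amy1, and by the sum the corticosterone and chow libraries did not overlap. By mean log2 CPM over the 4 genes tested they did, at 1.83 to 2.51 with corticosterone and 1.82 to 2.48 on chow. The adipocyte list averaged 8.90 to 10.0 log2 CPM per library on the high-fat diet, 9.67 to 9.98 with corticosterone and 8.58 to 9.70 on chow. Its sum was 17351 to 30732 CPM on the high-fat diet, 26796 to 31643 CPM with corticosterone and 11379 to 23030 CPM on chow. By the sum the corticosterone and chow libraries did not overlap, whereas by the log2 mean they did. The preadipocyte and fibroblast list summed to 4673 to 8686 CPM on the high-fat diet and 2399 to 5205 CPM with corticosterone, against 5333 to 16735 CPM on chow, where all 12 genes were tested and the corticosterone and chow libraries did not overlap. The endothelium list summed to 862 to 1420 CPM on the high-fat diet and 568 to 738 CPM with corticosterone, against 717 to 1183 CPM on chow. The part of these lists in the changes was not tested. In bulk tissue, fewer cells of a type and less RNA per cell cannot be told apart.

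Relatives of each gene were called in both directions, except the lipases, of which none fell, and the glutamate receptor group, of which none rose. Of all genes tested, 25.6% rose and 32% fell with corticosterone averaged over genotypes. The split counts of the serotonin and choline groups below do not stand out from those shares. Among 7 other lipases tested, the fat cell lipases Mgll, Lpl and Lipe and the lysosomal lipase Lipa rose with corticosterone averaged over genotypes, by 1.08, 0.74, 0.55 and 0.62 log2 units (edgeR adjusted p = 4.38e-06, 4.55e-04, 0.00503 and 0.0285), and 0 fell. Among 15 other genes of serotonin and catecholamine handling, 3 rose and 4 fell with corticosterone; the degrading enzyme Maoa rose by 0.91 and the vesicle transporter Slc18a2 fell by 0.80. Tph1, the tryptophan hydroxylase of peripheral tissues, was at 0.19 (FMRKO) and 0.08 (control) log2 units for the high-fat diet, and at 0.32 with corticosterone averaged over genotypes, none of them called. Of 16 other choline genes 5 rose and 5 fell with corticosterone, and Chat, the acetylcholine-synthesising enzyme, was at 0 counts in 19 of 24 libraries. Glutamate receptor subunits and their partners moved the other way from Grid1, with 0 of 11 higher and 9 lower, among them Gria3 (-1.46), Grin2b (-0.94), Grik5 (-0.92) and Grin2d (-0.89). Secreted phospholipases and their receptor had 2 of 7 higher and 3 lower with corticosterone: Pla2g12a rose by 1.35 and the receptor Pla2r1 fell by 1.11.

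In the matrix group of Ncan the calls were also split. Of 10 other lecticans, link proteins and tenascins, 3 rose and 4 fell with corticosterone, where 25.6% and 32% of all genes did. The link proteins Hapln4 and Hapln3, which bind proteoglycans to hyaluronan, were among those that rose. Hapln4 averaged 2.65 ± 1.2 CPM in FMRKO and 4.17 ± 1.57 CPM in control mice on the high-fat diet, 1.89 ± 0.49 and 2.19 ± 0.33 CPM in FMRKO and control mice with corticosterone, and 0.197 ± 0.0040 and 0.294 ± 0.213 CPM in FMRKO and control mice on chow (SD, n = 4 each). Its rise was 3.72 and 3.81 log2 units on the high-fat diet in FMRKO and control mice, and 3.06 with corticosterone averaged over genotypes (edgeR adjusted p = 2.54e-06, 1.08e-06 and 2.93e-08). Hapln4 is the neighbour of Ncan, 2.2 kb away, on the opposite strand, and the annotated genes do not overlap. The strand setting of the counting is not stated in the sources used here, so reads running past a gene's end could not be assigned by strand.

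Responses of known fat and steroid genes frame these values. Of 11 fat expansion genes tested, 9 rose and 1 fell with corticosterone averaged over genotypes, where 25.6% of all genes rose and 32% fell. On the high-fat diet 7 rose in FMRKO mice and 6 in control mice, where 15.2% and 15.3% of all genes rose. Lep, the satiety hormone of fat cells, averaged 1516 ± 380 and 1840 ± 392 CPM in FMRKO and control mice on the high-fat diet, 2853 ± 176 and 2775 ± 613 CPM in FMRKO and control mice with corticosterone, and 148 ± 41.2 and 173 ± 64.8 CPM in FMRKO and control mice on chow. So its mean was higher with corticosterone than on the high-fat diet, the reverse of the order of all 6 genes. High-fat values chose the 6 genes, so their order is favoured by that choice and is given only as a description. The means of Cav1 and Npr3, also of this list, were likewise higher with corticosterone in both genotypes. In control mice Cav1 averaged 2312 ± 177 CPM with corticosterone and 1923 ± 434 CPM on the high-fat diet, and Npr3 2039 ± 340 and 1352 ± 272 CPM. Mest, an imprinted gene linked to fat cell enlargement, was like the 6 higher on the high-fat diet than with corticosterone. It averaged 652 ± 260 CPM in FMRKO and 925 ± 223 CPM in control mice on the high-fat diet. The means were 52.7 ± 13.3 CPM in FMRKO and 84.3 ± 50.2 CPM in control mice with corticosterone, and 10.6 ± 1.34 CPM in FMRKO and 14.7 ± 7.03 CPM in control mice on chow (SD, n = 4 each). Of 15 glucocorticoid-responsive genes, 8 rose and 1 fell with corticosterone, beside the same shares of 25.6% and 32% of all genes. Among them Tsc22d3 (GILZ) rose by 2.06 log2 units (edgeR adjusted p = 1.08e-08).

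The nearest tested genes on the chromosome, 2 on each side of each gene and 24 in all, were also counted. With the high-fat diet, 9 of 24 were higher and 2 lower in FMRKO mice, and 9 higher and 0 lower in control mice, where 15.2% and 15.3% of all genes were higher. With corticosterone averaged over genotypes 11 were higher and 5 lower, where 25.6% of all genes were higher and 32% lower. Beside Pla2g2e stands its paralogue Pla2g5, 14.5 kb away. Pla2g5 was higher on the high-fat diet, by 2.63 log2 units in FMRKO and 2.35 in control mice (edgeR adjusted p = 1.75e-04 and 4.32e-04), and fell by 1.29 with corticosterone (adjusted p = 0.00166), while Pla2g2e was not called changed. Pla2g2d, further along at 95.9 kb, fell by 2.43 with corticosterone (adjusted p = 3.69e-05). On the high-fat diet it was at -0.090 in FMRKO mice (edgeR adjusted p = 0.923) and 1.63 in control mice (adjusted p = 0.0294). Its chow level was 18.6 ± 13.2 CPM in FMRKO mice, which include lymph node rich libraries, and 6.48 ± 1.46 CPM in control mice (SD). The part of lymph node tissue in its changes was not tested. Among the neighbours of Grid1, Tph2 and Slc5a7 no called rise was over 0.81 log2 units (Ccser2, high-fat diet, control mice).

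**Figure D4:**
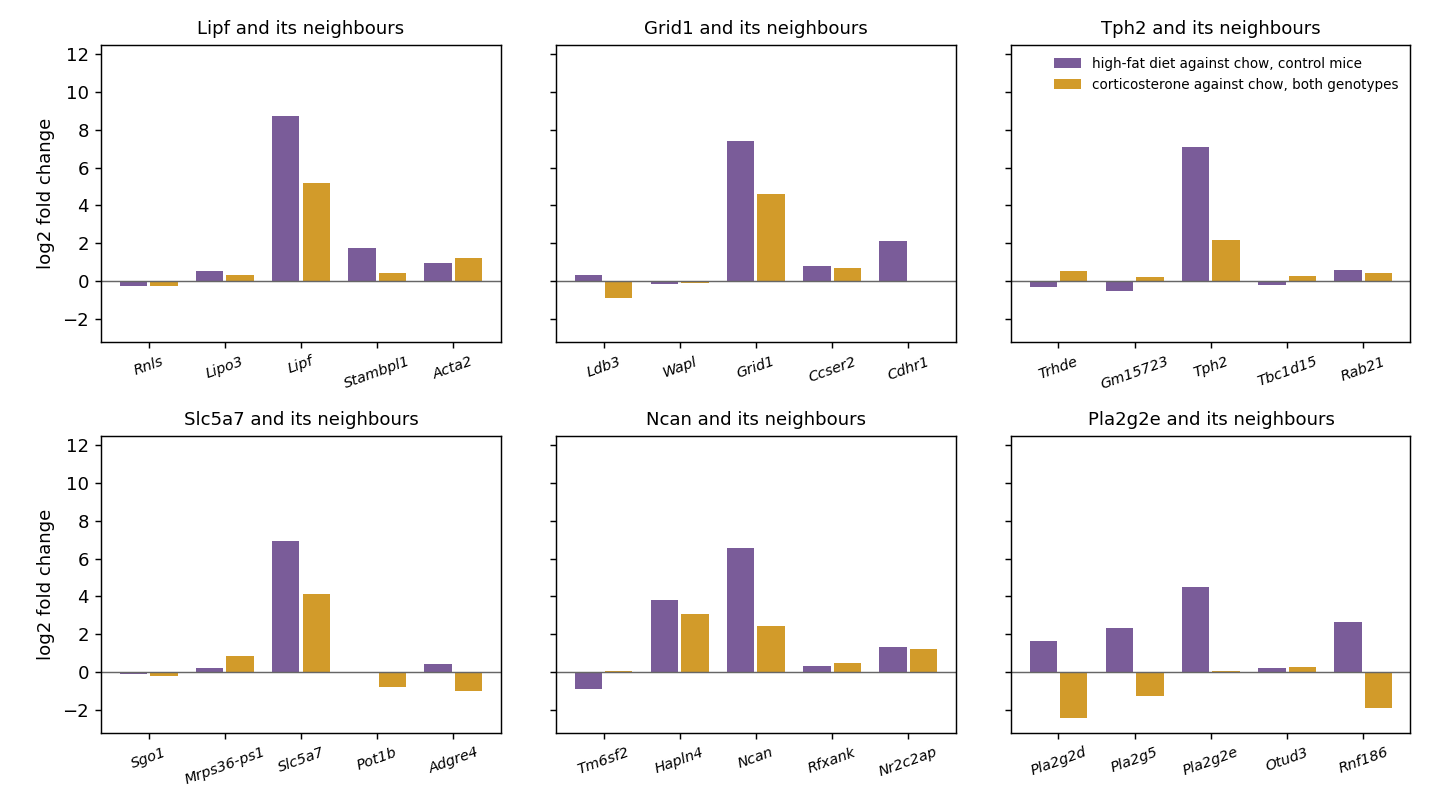
Log2 fold changes (bars, from 0) of each gene at the centre of its panel and of its 2 nearest tested genes on each side, ordered by position, for the high-fat diet against chow in control mice and corticosterone against chow averaged over genotypes. Hapln4 beside Ncan reached 3.81 and 3.06, and Pla2g5 beside Pla2g2e reached 2.35 and -1.29.

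By likeness of log2 CPM over all 24 libraries, described with no test since the high-fat step dominates it, Scd2 was most like Ncan (Pearson r 0.99), Slc16a12 most like Lipf (0.98), Paqr7 most like Slc5a7 (0.97) and Grid1 (0.96), Mindy2 most like Pla2g2e (0.96) and Mest most like Tph2 (0.95). Scd2, a fatty acid desaturase, averaged 1802 ± 387 CPM in FMRKO and 1821 ± 440 CPM in control mice on the high-fat diet, 298 ± 61.1 CPM in FMRKO and 375 ± 76.8 CPM in control mice with corticosterone, and 132 ± 19.2 CPM in FMRKO and 137 ± 22.3 CPM in control mice on chow (SD, n = 4 each).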

How the data were processed

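Deposited counts of reads per gene, 24 libraries, came from STAR 2.5.1a alignment and featureCounts 1.4.6p-5 (Subread) counting against GRCm38, according to the submitters' processing notes. Annotation release, strand setting and multi-mapping rule are not stated there. CPM and RPKM columns deposited by the authors matched values recomputed from the counts and were set aside; CPM in the text is TMM-normalised, and RPKM is that value per kilobase of the deposited gene length. Counts were fitted in edgeR 4.0.16 (R 4.3.3) with filterByExpr (minimum count 10), TMM, 1 mean per group over all 24 libraries and the quasi-likelihood test, two-sided, Benjamini-Hochberg adjusted over 19717 genes, threshold 0.05. The test was also run on simulated data with known changes, whose levels and spread were taken from the fit of these data. The biological coefficient of variation was 33.7%, over totals of 17925109 to 40427675 counts. Deviations from group means correlated over 0.1 in 4 of 4 same-numbered high-fat pairs (0.20 to 0.72), while different-numbered pairs reached 0.24. The pairing comes from the data and the shared title numbers, not from a stated litter or day. The 6 genes and all gene lists were chosen with earlier results of these data known. Named relatives are the up to 4 most abundant called genes of each list; Tph1, Chat, Syp, Scd2 and Pla2g2d were named after their values were seen or as nearest or most alike genes. Alternatives were DESeq2 1.42.0, RLE scaling, no filter, a prior count of 2, only the groups compared, a replicate block, a replicate block in the high-fat libraries alone (added after seeing the data), each library left out, and libraries rich in lymph node or muscle transcripts left out. Promoter windows are from RefSeq (GRCm38.p6), found for 5 of 6 genes. Positions in them are from the RefSeq start, which for Lipf and Ncan differs from the start of the counted gene.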

Additional observations from a re-analysis of the deposited data

Results flagged for a closer look

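Tph2 in chow FMRKO library 5 stood apart from its group at 0.507 CPM, where the other 3 libraries had 0.194 to 0.234 CPM. The gap to the nearest was 0.873 of the group's range, past Dixon's 95% critical value for 4 libraries. It was 1 of 36 groups tested, and chance flags about 1 in 20. The library was also rich in skeletal muscle transcripts and had the lowest total, and the part of these in the value was not tested.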

How the results depend on the processing

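The counts of the 6 genes called kept within 1.5 times under every alternative run for each comparison. Of same-numbered pairs across genotypes, 0 of 4 with corticosterone and 1 of 3 on chow correlated over 0.1 (-0.28 to 0.11), so there the libraries share only a number; the high-fat pairing is given with that comparison. The replicate block gave Tph2 in FMRKO mice a corticosterone rise of 1.73 (edgeR adjusted p = 0.0068), and DESeq2 gave 1.35 (adjusted p = 0.0479), both called where the reported fit was not; leaving out single libraries gave 0.89 to 1.75. Tph2 was called among those without corticosterone FMRKO library 4, which made 5 of 6 called in FMRKO mice. Other members with reversed direction were never called: Pla2g2e with corticosterone gave -0.10 (FMRKO) and -0.11 (average) without lymph node rich libraries, -0.44 to 0.020 (control) and -0.078 to 0.21 (average) with single libraries left out; Pla2g2e between genotypes gave 0.13 and 0.10 on the high-fat diet without lymph node rich and without muscle rich libraries, -0.25 to 0.15 with single libraries left out, -0.020 to 0.44 with corticosterone, and 0.15 on chow without lymph node rich libraries. Genotype differences of Grid1 with corticosterone ran from -0.66 to 0.18, of Ncan on chow from -0.73 to 0.068, and Slc5a7 on chow was -0.66 without lymph node rich libraries. For the difference of responses, Lipf gave -0.30 with a prior count of 2 and -0.41 to 0.66 with single libraries left out, and Ncan gave -0.016 with RLE, -0.023 with DESeq2, -0.027 with no filter, -0.064 with only the groups compared and -0.52 to 0.25 with single libraries left out. The cause was not tested. Over all genes, DESeq2 called 12, 6, 71 and 4 genes between genotypes on the high-fat diet, with corticosterone, on chow and for the difference, where edgeR called 2, 1, 2 and 0; without chow control library 1, 19 were called on chow. The fit of only the groups compared called 1, 2 and 1 genes between genotypes on the high-fat diet, with corticosterone and on chow, the replicate block in the high-fat libraries alone called 39, and leaving out lymph node rich libraries called 1 on the high-fat diet and 1 on chow. With corticosterone, 3 were called without corticosterone control library 1, 3 without chow control library 2 and 2 without chow control library 4. Without lymph node rich libraries 56.6% of corticosterone calls in FMRKO mice were higher, against 49.2% with them. Some genes failed the filter in the fit of only the groups compared and gave no value there. Lipf, Grid1 and Tph2 on chow rest on few reads per library, which limits their folds.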
